A study of Mus musculus with 13 samples.

Results

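The comparison described here set 3 hippocampal libraries from 24-month-old mice on acute dietary restriction, begun at 20 months of age, against 3 libraries from 24-month-old mice fed ad libitum. These 6 of the 13 libraries of the study were chosen by their labels alone. All 6 came from female hybrid mice (strain label C3HB6F1, spelled C3B6F1 in the series' design text). The acute libraries carried the numbers 1, 2 and 3 and the ad libitum libraries the numbers 1, 2 and 4. The labels did not state that each library came from its own mouse, so p-values measure the spread between libraries, which may be partly technical. The other 7 libraries were 4 from 24-month-old mice restricted since 5 months of age (long-term restriction) and 3 from 5-month-old mice fed ad libitum. They entered the statistical fit, so its p-values and standard errors rest on the spread within every group, not within the 6 libraries alone. They are otherwise given beside the results for reference only, since the long-term and young values were set against the same ad libitum libraries.

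Nuclei were isolated from whole frozen hippocampus, sorted on the DNA dye Hoechst and profiled by droplet single-nucleus RNA sequencing, which counts unique molecular identifiers (UMIs) per gene. The 6 libraries held 48929 barcodes and 366355616 UMIs, with 44325065 to 76504996 UMIs per library. After filtering, 45198 nuclei were retained (3417 to 11119 per library), of which 38354 fell in clusters that could be named from marker genes. No pair of libraries shared more than 40 barcodes. Among these 6 libraries, both numbered 1 stood apart in composition. Acute library 1 held 2.37% oligodendrocyte-like nuclei and ad libitum library 1 held 4.27%, against 14.2% to 24.2% in the other four. Ad libitum library 1 also held 29.8% astrocyte-like nuclei, against 1.60% and 3.78% in the other ad libitum libraries. Libraries numbered 1 of the other groups were also low in oligodendrocyte-like nuclei, with 47 of 5711 named nuclei (young) and 183 of 7193 (long-term). The other young and long-term libraries held 624 to 994 oligodendrocyte-like nuclei. The counts of called genes below are therefore also given without the libraries numbered 1. That fit left out the library numbered 1 of every group, the young and long-term groups included.

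Dietary restriction lowers food intake without malnutrition and is known to extend life span in mice. Hungry and food-restricted rodents have raised corticosterone, the glucocorticoid of rodents, which binds the glucocorticoid receptor and activates genes through response elements in DNA. Oligodendrocytes form the myelin of the central nervous system and arise from oligodendrocyte precursors; astrocytes synthesize much of the cholesterol that the adult brain uses.

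UMIs were summed per library and class, and a gene was called at an adjusted p below 0.05 (edgeR quasi-likelihood test, Benjamini-Hochberg within the class). Of 10 classes tested, 4 held called genes. Oligodendrocyte-like nuclei held 227 calls among 11368 genes tested (2.00%), of which 97 were higher (0.853%) and 130 lower (1.14%) under acute restriction. Precursor-like nuclei held 14 calls among 9179 genes (0.153%), 11 higher (0.120%) and 3 lower (0.0327%). Astrocyte-like nuclei held 5 among 11482 (0.0435%), 1 higher (0.00871%) and 4 lower (0.0348%), and microglia-like nuclei 1, lower, among 3912 (0.0256%). DESeq2 also called 1 gene in microglia-like nuclei, and it was another gene. In the other 6 classes edgeR called 0 genes. Unadjusted p-values below 0.05 numbered 939 of 16861 genes tested in dentate granule neuron-like and 461 of 13357 in inhibitory neuron-like nuclei. They numbered 425 of 14719 in CA1-like, 295 of 10628 in CA3-like, 78 of 2628 in endothelial-like and 48 of 2972 in mural-like nuclei. With no gene changed, a share of about 0.05 would fall below that limit, so these counts alone do not show further changed genes. Sums under 20 nuclei were dropped, which left 2 ad libitum libraries for CA3-like and endothelial-like nuclei and 2 libraries in each group for mural-like nuclei. The counts of DESeq2 calls, in the same order, were 43, 1, 0, 0, 0 and 0. Of the 227 oligodendrocyte calls 210 (92.5%) had 3 acute values that did not overlap the 3 ad libitum values, which held for 18.1% of all genes tested; the calls rest on the same values, so this is a description. These classes differed in size and depth, so the number of calls alone does not show that one class responded more than another; differences in response were tested directly, as given below.

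**Figure D1:**
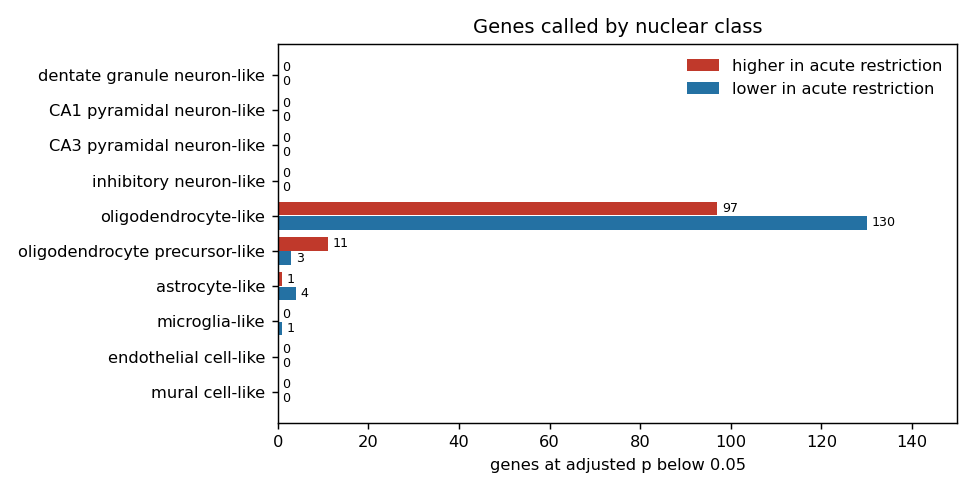
Number of genes at adjusted p below 0.05 (horizontal axis) in each of 10 nuclear classes, with red bars for genes higher and blue bars for genes lower under acute restriction. Oligodendrocyte-like nuclei held 97 and 130, precursor-like nuclei 11 and 3, astrocyte-like nuclei 1 and 4, and microglia-like nuclei 0 and 1.

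In oligodendrocyte-like nuclei the genes that rose under acute restriction included a large part of a list of known glucocorticoid-induced genes. Of its 30 members, 22 passed the filter on low counts, and 11 of these were called higher and 0 lower. The median number of UMIs per nucleus did not overlap between the groups (1577 to 1889 against 1988 to 3169), and a fit with that depth as a covariate called 3 members higher. The 11 were Hif3a, Sgk1, Fam107a, Plin4, Pdk4, Fkbp5, Cdkn1a, Nfkbia, Per1, Klf15 and Tsc22d3. The median log2 fold change of the 22 tested members was 1.11, beside -0.01 over all genes tested in the class. In 16 of the 22 the 3 acute values lay above the 3 ad libitum values without overlap, which held for 7.97% of all genes tested. The list was chosen with earlier results of these data known and is no independent evidence of its direction.

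The promoter sequences of 4 called genes are shown because they hold a binding motif of a regulator named above: the 250 bases before an annotated start (RefSeq, build GRCm38.p6), 5′ to 3′ on the gene's strand, with the motifs in capitals. The glucocorticoid response element was searched as GNACA followed, after 3 bases of any kind, by its reverse complement TGTNC, and the E-box, which the clock factors CLOCK and BMAL1 bind, as CACGTG, each on both strands; the letters of the motifs do not overlap each other.
Sgk1, chr10:21993640-21993889, plus strand: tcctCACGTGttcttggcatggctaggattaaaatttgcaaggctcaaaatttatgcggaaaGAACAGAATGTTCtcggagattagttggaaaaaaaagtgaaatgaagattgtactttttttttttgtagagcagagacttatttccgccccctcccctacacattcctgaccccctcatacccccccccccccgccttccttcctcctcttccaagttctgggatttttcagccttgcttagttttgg
Fam107a, chr14:8309780-8310029, minus strand: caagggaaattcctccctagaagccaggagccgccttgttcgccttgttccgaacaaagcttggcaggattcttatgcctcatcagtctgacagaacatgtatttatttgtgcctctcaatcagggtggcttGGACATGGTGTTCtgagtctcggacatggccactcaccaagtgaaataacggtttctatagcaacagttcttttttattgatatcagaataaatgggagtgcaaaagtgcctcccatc
Per1, chr11:69098699-69098948, plus strand: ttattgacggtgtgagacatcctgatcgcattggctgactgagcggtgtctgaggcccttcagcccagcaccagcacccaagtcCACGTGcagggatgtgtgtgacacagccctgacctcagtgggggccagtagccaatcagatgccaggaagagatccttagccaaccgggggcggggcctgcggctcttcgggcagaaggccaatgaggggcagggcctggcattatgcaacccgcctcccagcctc
Tef, chr15:81802423-81802672, plus strand: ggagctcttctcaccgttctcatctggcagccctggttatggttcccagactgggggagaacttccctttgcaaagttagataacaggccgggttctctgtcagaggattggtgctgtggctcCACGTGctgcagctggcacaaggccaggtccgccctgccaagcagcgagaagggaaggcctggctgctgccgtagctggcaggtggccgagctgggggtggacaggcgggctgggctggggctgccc

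The glucocorticoid response element was present in 2 of the 11 called list genes, Sgk1 (at position -188 from the start) and Fam107a (at -118). Of the 27 list members with a window, called or not, 4 held it. It was present in 127 of 32851 windows in the table (0.387%), and by gene in 119 of 27025. The E-box was present in 4 of the 11 (Per1, Fkbp5, Klf15 and Sgk1), in 7 of the 27, and in Tef at -127. It was present in 1978 windows (6.02%), and by gene in 1854 of 27025. Over all called genes in the table, the E-box was present in 10 of 73 genes that rose and 10 of 87 that fell, and the glucocorticoid response element in 2 of 73 and 1 of 87. A match is a description of the letters only, and a window without one says nothing about the factor, since many known response elements lie far from the start.

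Hif3a (ENSMUSG00000004328, chr7:17031507-17062427), a hypoxia-inducible factor subunit and known glucocorticoid target, was at 7.11, 7.39 and 7.31 log2 CPM (the log2 of UMIs scaled to a common library total, with a prior count of 2) in acute libraries 1, 2 and 3. It was at 4.67, 3.86 and 4.20 in ad libitum libraries 1, 2 and 4. The lowest acute value was therefore well above the highest ad libitum value. Hif3a rose by 3.30 ± 0.31 on the log2 scale (SE, n = 3 per group; 9.86-fold, edgeR adjusted p 8.3e-06), from 36 to 519 UMIs per acute library and 9 to 45 per ad libitum library. Long-term libraries averaged 5.92 ± 0.74 (SD, n = 4) and young libraries 3.66 ± 0.68 (SD, n = 3).

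Sgk1 (chr10:21882184-21999903), the serum- and glucocorticoid-regulated kinase, was at 8.02, 7.76 and 8.51 log2 CPM under acute restriction and at 6.04, 5.26 and 5.01 in ad libitum libraries. The groups did not overlap. It rose by 2.89 ± 0.59 on the log2 scale (SE, 7.41-fold, edgeR adjusted p 0.043). Fkbp5 (chr17:28399094-28517527), a co-chaperone that lowers the affinity of the glucocorticoid receptor for its hormone, was at 7.26, 7.55 and 7.96 against 6.35, 4.67 and 5.37. Ad libitum library 1 had the highest control value of both genes, and all acute values were still above it. Fkbp5 rose by 2.41 ± 0.41 on the log2 scale (SE, 5.33-fold, edgeR adjusted p 0.015). Hif3a and Fkbp5 both overlap other annotated gene models, so some of their UMIs could be assigned to either gene.

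Pdk4 and Plin4 are the called members that also belong to the fasting fuel switch list. Pdk4 (chr6:5483351-5496309), the kinase that inactivates pyruvate dehydrogenase and so spares glucose during fasting, was at 5.86, 5.03 and 5.82 log2 CPM under acute restriction and 3.59, 3.07 and 3.27 in ad libitum libraries. It rose by 2.49 ± 0.30 (SE, edgeR adjusted p 5.8e-06). Plin4 (chr17:56100591-56109803), a perilipin that coats lipid droplets, was at 5.43, 6.29 and 6.09 against 3.59, 3.68 and 3.63 and rose by 2.58 ± 0.28 (SE, edgeR adjusted p 2.3e-06). Neither gene had overlapping groups. In that list of 32 genes, these were the only calls among 25 tested members, with 0 called lower and a median log2 fold change of 0.15. Cpt1a, the carnitine transferase that admits fatty acids to mitochondria, was at a log2 fold change of 1.06 with an adjusted p of 0.32 (edgeR). Acadm, Hadha and Ppara, which act in or control fatty acid oxidation, were at 0.55, 0.21 and -0.36 and were not called.

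The remaining called members had smaller or less precise changes. Nfkbia, the inhibitor of NF-kappaB, was at 5.55, 4.51 and 5.01 log2 CPM against 3.88, 3.21 and 2.50 (log2 fold change 2.01 ± 0.36 SE, edgeR adjusted p 0.0012). Cdkn1a, the cell cycle inhibitor p21, was at 4.99, 3.71 and 3.40 against 2.74, 1.75 and 2.03 (2.23 ± 0.59, edgeR adjusted p 0.044), from 8 to 37 and 2 to 7 UMIs. Both rose without overlap, Cdkn1a from few molecules. Fam107a, a stress-induced actin-binding protein, rose by 2.61 ± 0.62 (SE) from 1 to 4 UMIs per ad libitum library to 1, 19 and 21 per acute library. Klf15, a transcription factor of fasting metabolism, and Tsc22d3, an anti-inflammatory leucine zipper protein, rose by 0.93 ± 0.22 and 0.62 ± 0.16 (SE). Of the 11 tested members that were not called, Zbtb16, Arrdc2 and Ddit4 were at 1.49, 1.17 and 1.04 with edgeR adjusted p of 0.425, 0.073 and 0.324. Rhob and Irs2 were at -0.57 and -0.48 and were also not called.

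**Figure D2:**
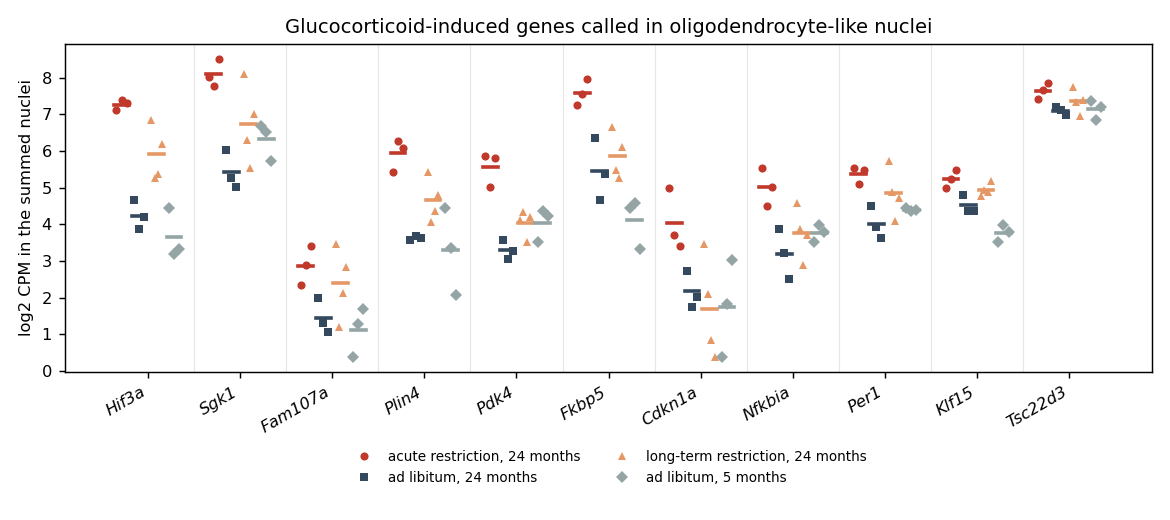
Log2 CPM in summed oligodendrocyte-like nuclei (vertical axis) of the 11 called glucocorticoid-induced genes, with 1 point per library and a bar at each group's mean; long-term and young libraries are shown for reference. All 3 acute values lie above all 3 old ad libitum values for each of the 11 genes, as for Hif3a (7.11 to 7.39 against 3.86 to 4.67). For Fam107a the lowest acute value (2.35) and the highest ad libitum value (1.99) rest on 1 UMI each, so that gap reflects library totals only.

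The receptors themselves were not called. Nr3c1, the glucocorticoid receptor, was at 7.40, 7.75 and 7.47 log2 CPM under acute restriction and 8.22, 7.81 and 7.77 in ad libitum libraries (log2 fold change -0.34 ± 0.17 SE, edgeR adjusted p 0.46), with groups that did not overlap. Nr3c2, the mineralocorticoid receptor, was at -0.30 ± 0.16 (SE, edgeR adjusted p 0.48). Of 9 genes of corticosteroid reception and activation, 6 were tested and 0 called in either direction. Heat shock and chaperone genes, some of which serve the receptor complex, had 16 of 19 members tested and 0 called, with a median log2 fold change of 0.52 and 15 positive values. Dnaja1 and Hspa4l came closest at 0.83 and 0.71 (edgeR adjusted p 0.056 and 0.08).

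Per1, Per2 and Tef, which belong to the circadian clock, rose in the same nuclei. Of 23 members of the circadian list, 20 were tested, these 3 were called higher and 0 lower, with a median log2 fold change of 0.47. Per1 and Per2, the period genes that repress the CLOCK and BMAL1 activator, were at 5.55, 5.10 and 5.49 and at 4.59, 4.68 and 4.63 log2 CPM under acute restriction. Their ad libitum values were 4.51, 3.92 and 3.63 and 4.12, 3.16 and 2.93. Neither gene overlapped between groups, and the log2 fold changes were 1.53 ± 0.29 (SE, edgeR adjusted p 0.0018) and 1.59 ± 0.31 (SE, edgeR adjusted p 0.0031). Tef, a clock-controlled bZIP factor, was at 7.22, 7.31 and 7.33 against 6.40, 6.49 and 6.59 and rose by 0.79 ± 0.14 (SE, edgeR adjusted p 8.8e-04). Clock and Arntl, which encode the activator pair, were at -0.48 and -0.90 (edgeR adjusted p 0.074 and 0.32). Arntl was at 1.99 (1 UMI) in ad libitum library 1 and at 5.15 and 4.86 in the other 2, so its groups overlapped. The labels used here gave no hour of tissue collection, so time of day was not compared. Per1 is a member of both lists and is counted in both.

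Gli2, Mrgpra2b and Phyhd1, which belong to none of these lists, also rose. Gli2, a transcription factor of Hedgehog signalling, was at 6.75, 6.75 and 5.65 log2 CPM against 3.59, 3.26 and 2.69 (log2 fold change 3.52 ± 0.53 SE, edgeR adjusted p 0.0045). Phyhd1, which encodes a phytanoyl-CoA dioxygenase domain protein, was at 5.43, 6.37 and 5.65 against 2.74, 3.21 and 3.27 (2.97 ± 0.28 SE, edgeR adjusted p 1.6e-07). Both were without overlap. Mrgpra2b, one of a family of near-identical G protein-coupled receptor genes to which UMIs may be assigned uncertainly, rose by 3.36 ± 0.50 (SE) from 1 to 5 UMIs per ad libitum library. Fam169a rose by 2.56 ± 0.50 (SE). Among the called genes, 38 were gene models known only by a number and are not described further. Of the 43 genes named by rule in this class, 27 overlap another annotated gene, and whether the authors' counting used strand is not given in the sources used here.

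Genes of axon guidance were among those that fell. Of 37 members of that list, 32 were tested, 0 were called higher and 6 lower: Dcc, Robo1, Sema5a, Sema6a, Sema6d and Ephb1. With the trend of fold change with gene span removed 3 members were called lower, and with median UMIs per nucleus as a covariate 1. The list's median log2 fold change was -0.33, and 10 of the 32 were lower without overlap, beside 10.2% of all genes tested. Dcc, the netrin receptor, was at 8.23, 8.46 and 8.67 log2 CPM under acute restriction and 10.06, 9.65 and 9.66 in ad libitum libraries, from 79 to 1097 and 397 to 2714 UMIs. The groups did not overlap, and Dcc fell by 1.30 on the log2 scale (SE 0.16, 2.46-fold lower, edgeR adjusted p 8.3e-06). Long-term libraries averaged 9.03 ± 0.11 (SD, n = 4) and young libraries 9.73 ± 0.39 (SD, n = 3).

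The semaphorins, membrane-bound guidance cues, differed in the size of their fall. Sema5a was at 6.20, 6.10 and 6.51 log2 CPM against 7.95, 7.46 and 7.55 and fell by 1.34 on the log2 scale (SE 0.22, edgeR adjusted p 0.0018). Sema6a was at 8.12, 8.24 and 8.09 against 8.97, 9.09 and 8.79 and fell by 0.80 (SE 0.15). Sema6d was at 8.71, 8.80 and 8.75 against 9.65, 9.33 and 9.47 and fell by 0.72 (SE 0.13). None of them overlapped between groups. The slit receptor Robo1 and the ephrin-B receptor Ephb1 fell by 0.61 (SE 0.14, edgeR adjusted p 0.012) and 0.60 (SE 0.15, edgeR adjusted p 0.037).

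Among 38 genes of myelin and oligodendrocyte maturation, 37 were tested, 0 were called higher and 3 lower, Opalin and Pllp among them, with a median log2 fold change of -0.23. Opalin (chr19:41061710-41077113), a membrane glycoprotein of mature oligodendrocytes, was at 6.64, 7.11 and 6.75 log2 CPM under acute restriction and 8.23, 8.20 and 8.38 in ad libitum libraries. It fell by 1.39 (SE 0.16, 2.62-fold lower, edgeR adjusted p 4.8e-06), with 7.37 ± 0.29 (SD, n = 4) in long-term and 8.44 ± 0.22 (SD, n = 3) in young libraries. Pllp, plasmolipin of the myelin membrane, was at 6.53, 6.19 and 5.56 against 7.66, 6.98 and 7.13 and fell by 1.20 (SE 0.21, edgeR adjusted p 0.0011). Neither gene had overlapping groups. The fall did not extend by this test to other structural and regulatory myelin genes: Cnp, Mal, Cldn11 and the transcription factors Myrf and Sox10 were at -0.28, 0.04, 0.12, 0.10 and 0.05 and were not called. Olig1 and Olig2 were at -0.64 and -0.72 with edgeR adjusted p of 0.275 and 0.324. Klk6 was at -2.15 (edgeR adjusted p 0.069), from few UMIs.

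**Figure D3:**
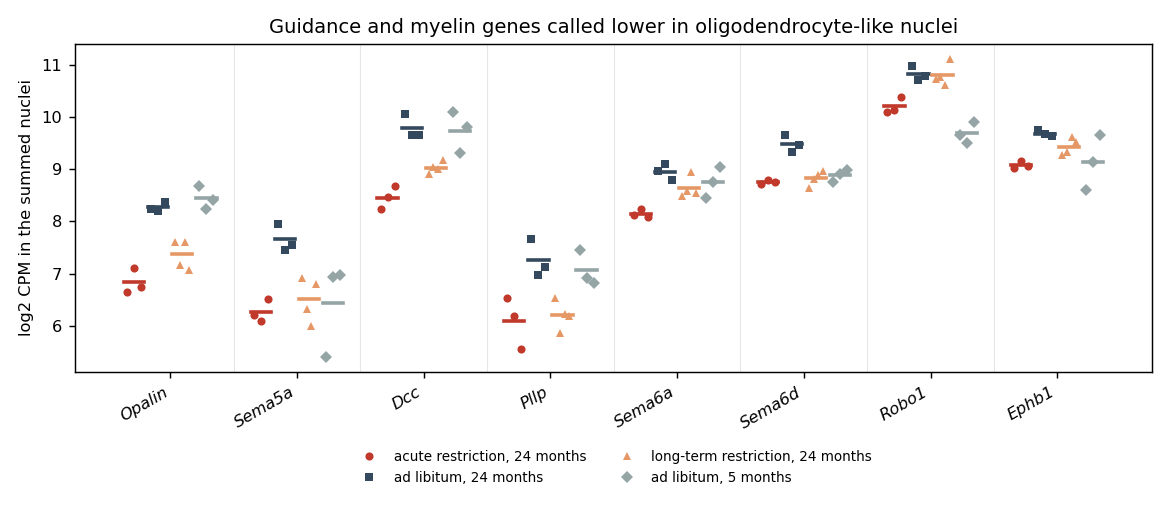
Log2 CPM in summed oligodendrocyte-like nuclei (vertical axis) of 8 axon guidance and myelin genes called lower, with 1 point per library and a bar at each group's mean; long-term and young libraries are shown for reference. The acute and old ad libitum points do not overlap for any of the 8 genes, as for Opalin (6.64 to 7.11 against 8.20 to 8.38).

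Pde4d and the glutamate receptor subunits Gria4 and Grik2 also fell. Pde4d, a phosphodiesterase that degrades cyclic AMP, was at 9.12, 8.86 and 8.98 log2 CPM against 10.21, 9.90 and 9.94 and fell by 1.04 (SE 0.14, edgeR adjusted p 1.9e-05). It was the one call among 16 tested of 19 phosphodiesterases (0 higher, 1 lower, median -0.27). Of 23 glutamate receptor subunits, 20 were tested, 0 were called higher and 2 lower, with a median of -0.23. The 2 were the AMPA receptor subunit Gria4, which fell by 0.67 (SE 0.16, edgeR adjusted p 0.02), and the kainate receptor subunit Grik2, which fell by 0.45 (SE 0.12, edgeR adjusted p 0.044). Neither receptor subunit was called once the trend of fold change with gene span was removed, with median UMIs per nucleus as a covariate, or without the libraries numbered 1. The fall of Grik2 was small, and its groups were still apart (9.98 to 10.14 against 10.45 to 10.54).

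Piezo2, Adamts2 and Tmem132d fell by more than a log2 unit. Piezo2, a mechanically gated ion channel, fell by 2.85 on the log2 scale (SE 0.42, edgeR adjusted p 5.1e-04), from 8, 101 and 158 UMIs in ad libitum libraries to 1, 25 and 7. Adamts2, a protease that trims procollagen, was at 4.34, 5.14 and 4.91 log2 CPM against 6.69, 6.56 and 6.68 and fell by 1.69 (SE 0.21, edgeR adjusted p 8.3e-06). Tmem132d was at 7.07, 6.64 and 7.12 against 8.44, 8.29 and 8.14 and fell by 1.36 (SE 0.17). Of these, Tmem132d rests on the most UMIs, 35 to 311 per acute library. Lypd6b, Lpcat2, which makes phosphatidylcholine from its lyso form, Spata13, an exchange factor for small GTPases, and St8sia3os fell by 1.51, 1.50, 1.33 and 1.82. Lpcat2 had 0 UMIs in acute library 1, which is 0.38 log2 CPM on this scale. St8sia3os overlaps St8sia3, so its reads could belong to either gene. Sall1, a transcription factor listed as a marker of microglial identity, fell by 0.84 (SE 0.23, edgeR adjusted p 0.0496).

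Measured features of the oligodendrocyte-like sums moved with diet. Median UMIs per nucleus were 1577 to 1889 in acute and 1988 to 3169 in ad libitum libraries, without overlap. The summed oligodendrocyte markers overlapped (16911 to 17881 against 17227 to 18987 CPM, 4 of 8 markers higher under acute restriction). Those of CA3 neurons (1373 to 1589.7 against 965 to 1072 CPM, 6 of 7 higher) and inhibitory neurons (220.5 to 265 against 165 to 178 CPM, 6 of 11 higher) were higher under acute restriction. Those of granule neurons (4325 to 4389 against 4546 to 4776 CPM, 3 of 8 higher), committed precursors (724 to 852 against 926 to 964 CPM, 2 of 6 higher) and precursors (436 to 463.5 against 530.1 to 589 CPM, 1 of 7 higher) were lower. Cajal-Retzius neuron markers were also lower (3.79 to 15.8 against 16.2 to 26.9 CPM, with Lhx5 at 0). No marker of the other lists named here was at 0. Their part in the called genes was not tested, apart from the granule markers and the depth, for which fits with the value as a covariate called 186 and 36 genes.

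Called genes also differed in length: genes that rose had a median genomic span of 38.1 kb and genes that fell one of 182.9 kb, beside 29.3 kb over all genes tested. Removing a trend of fold change with span gave 205 calls, 108 higher and 97 lower, beside 97 and 130 without that step. The glucocorticoid list kept 11 calls in that fit, the guidance list 3 and the glutamate receptors 0. With median UMIs per nucleus as a covariate there were 36 calls, 18 in each direction and all among the 227, including 3 glucocorticoid-induced genes and 1 guidance gene. In that fit the median absolute log2 fold change of the 227 genes was 0.87, beside 0.93 without the covariate, and all 227 kept their direction. Without the libraries numbered 1 there were 259 calls (176 higher, 83 lower), of which 160 were among the 227, with 13 of 24 tested glucocorticoid-induced genes and 4 guidance genes. The count fell to 83 without acute library 2, 102 without acute library 3, 89 without ad libitum library 2 and 93 without ad libitum library 4.

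Differences in response between classes were tested in one model over the sums of oligodendrocyte-like nuclei and another class. The filter on low counts was applied to both together, so some genes were not tested in the other class alone. Against granule neuron-like nuclei 152 of 15829 genes differed (0.960%), against precursor-like nuclei 127 of 10505 (1.21%), against astrocyte-like nuclei 75 of 12582 (0.596%) and against microglia-like nuclei 5 of 7833 (0.0638%). Of the 227 oligodendrocyte calls, all were tested against granule neurons and 97 differed, each in the direction of the oligodendrocyte change. The corresponding counts were 72 of 218 tested against precursors, 39 of 223 against astrocytes and 5 of 195 against microglia. All these counts use the calls that chose the genes and are a description only.

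Among glucocorticoid-induced genes, Hif3a changed more in oligodendrocyte-like than in granule-like nuclei by 3.21 ± 0.30 on the log2 scale (SE, edgeR adjusted p 8.1e-13) and more than in astrocyte-like nuclei by 2.01 ± 0.24 (SE, edgeR adjusted p 5.2e-08). Fkbp5 differed from granule-like nuclei by 2.52 ± 0.37 (SE, edgeR adjusted p 0.011) and from precursor-like nuclei by 1.31 ± 0.27 (SE, edgeR adjusted p 0.0020). Pdk4 differed from astrocyte-like nuclei by 2.77 ± 0.44 (SE, edgeR adjusted p 9.4e-05), where its own log2 fold change was -0.27. Granule-like nuclei had 26 members of the list tested, 0 called and a median of 0.02. The difference for Sgk1 passed the threshold against microglia-like nuclei (3.35 ± 0.51 SE, edgeR adjusted p 6.6e-04). It did not pass against granule-like (3.02, adjusted p 0.088), precursor-like (2.62, adjusted p 0.092) or astrocyte-like nuclei (2.22, adjusted p 0.57). Among genes that fell, Dcc differed from precursor-like, astrocyte-like and granule-like nuclei by -1.46, -1.69 and -1.13 (edgeR adjusted p 3.9e-11, 4.2e-09 and 3.3e-04).

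**Figure D4:**
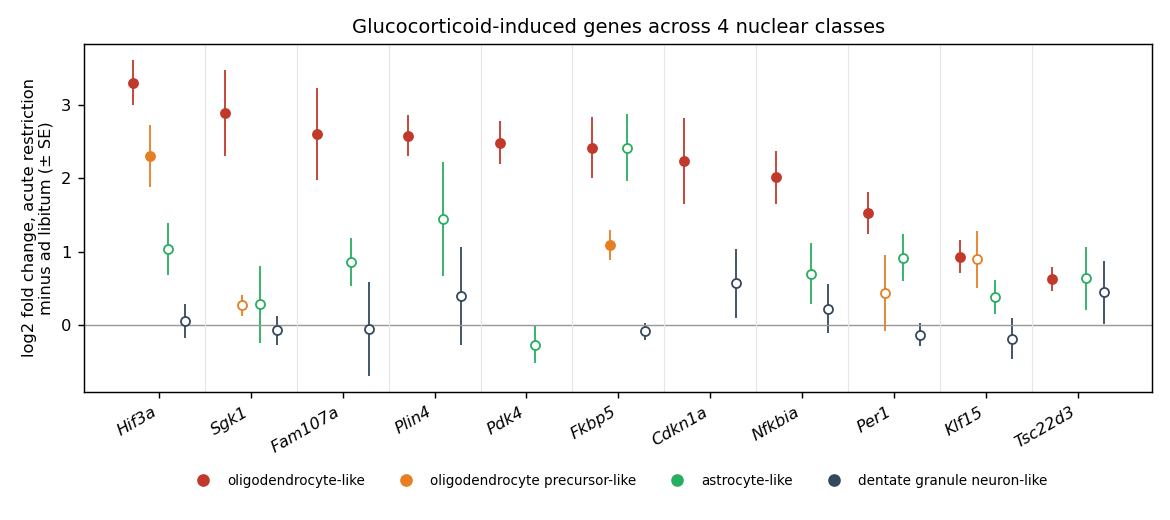
Log2 fold change under acute restriction (vertical axis, ± SE) of the 11 glucocorticoid-induced genes called in oligodendrocyte-like nuclei, in 4 classes given by color; filled points are at adjusted p below 0.05, open points are not, and a gene not tested in a class has no point. In granule-like nuclei Hif3a was at 0.05 and Fkbp5 at -0.08, both open, while precursor-like nuclei have filled points at Hif3a (2.30) and Fkbp5 (1.09).

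Oligodendrocyte precursors shared the rise of Hif3a and Fkbp5. Of the 14 called genes 11 rose and 3 fell, and all 14 were without overlap, beside 13.8% of genes tested (6.46% higher and 7.32% lower). Hif3a was at 4.87, 4.85 and 5.85 log2 CPM under acute restriction and 2.75, 3.52 and 3.45 in ad libitum libraries (log2 fold change 2.30 ± 0.42 SE, edgeR adjusted p 0.012). Fkbp5 was at 6.28, 6.43 and 6.78 against 5.33, 5.27 and 5.74 (1.09 ± 0.20 SE, edgeR adjusted p 0.012). Of the glucocorticoid list 14 members were tested, 2 were called higher and 0 lower, and the median log2 fold change of the 14 was 0.54. The difference of Hif3a from oligodendrocyte-like nuclei (0.94 ± 0.49 SE, edgeR adjusted p 0.53) did not pass the threshold, which does not show that the responses were alike.

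Htra1 and Gpd1 also rose in precursor-like nuclei. Htra1, a secreted serine protease, was at 7.30, 7.23 and 7.57 log2 CPM against 6.26, 6.17 and 6.04 (1.27 ± 0.19 SE, edgeR adjusted p 5.8e-04). Gpd1, the cytosolic glycerol-3-phosphate dehydrogenase, was at 5.94, 5.78 and 5.69 against 4.51, 4.55 and 4.08 (1.54 ± 0.27 SE, edgeR adjusted p 0.0078). The groups of both were over a log2 unit apart on average. Pou3f1, a POU transcription factor, Mertk, a receptor tyrosine kinase of phagocytosis, and Gpt2, the mitochondrial alanine aminotransferase, rose by 1.06 ± 0.21, 0.84 ± 0.17 and 0.68 ± 0.15 (SE). Plce1, a phospholipase C, Abhd17b, a depalmitoylase, the cadherin Cdh19 and the chromatin reader Zmynd8 rose by 0.75, 0.74, 0.70 and 0.63. Abca1, which exports cholesterol from cells, was at 7.03, 6.94 and 6.64 against 7.54, 7.61 and 7.48 and fell by 0.69 (SE 0.15, edgeR adjusted p 0.042). The zinc finger gene Zfp934 fell by 0.86 (SE 0.18), and the third gene that fell is a model known only by a number. Of the 14 genes, 11 overlap another annotated gene.

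Of 38 myelin and maturation genes, 18 were tested in precursor-like nuclei and 0 were called in either direction (median 0.12), and of 25 genes of proliferation and early commitment 19 were tested and 1 was called higher (Pou3f1). Precursor markers summed to 17151 to 18415 CPM in acute and 18824 to 19883 in ad libitum libraries, without overlap (2 of 7 higher), and mossy cell markers to 569 to 619 against 488 to 526 (4 of 6 higher). Fibroblast markers summed to 6.53 to 6.91 CPM against 4.40 to 6.36 (2 of 9 higher, with Col1a1, Col1a2, Bnc2 and Slc47a1 at 0). Their part in the called genes was not tested. A fit with median depth per nucleus as a covariate called 8 genes, of which 3 were among the 14. Without the libraries numbered 1 the count was 77. Leaving out single libraries gave 3 to 10 calls; it was 3 without acute library 3, ad libitum library 1 or ad libitum library 4, and 4 without acute library 1 or ad libitum library 2.

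Precursor-like nuclei made up 3.17% ± 0.586 of named nuclei under acute restriction and 5.24% ± 1.06 ad libitum (SD, n = 3 each). The values were 3.41%, 2.50% and 3.60% against 4.90%, 4.39% and 6.43%, so the groups did not overlap. The log2 odds differed by -0.75 (exact two-sided permutation test, p = 0.1, adjusted over 15 classes 0.75), and 0.1 is the smallest p that 3 against 3 libraries allow. Committed precursor-like nuclei were also lower in share in each acute library (exact permutation p = 0.1), at 0.0683% against 0.184%. These shares rest on 6, 4 and 5 nuclei in acute libraries 1, 2 and 3. In ad libitum libraries 1, 2 and 4 they rest on 3, 15 and 13. Oligodendrocyte-like nuclei made up 13.6% ± 10.9 and 14.7% ± 9.04 (SD, n = 3; exact permutation p = 0.7), and the exact p of each of the other classes was 0.2 or above. The dissection and sorting of whole tissue can also set such shares.

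Astrocyte-like nuclei held 5 calls, and 2 of the 4 genes that fell belong to cholesterol synthesis. All 24 genes of that list were tested, 0 were called higher and 2 lower (Msmo1 and Insig1). The median log2 fold change was -0.77, beside -0.01 over all genes tested in the class, and none of the 24 was positive. In 10 of the 24 the acute values were lower without overlap, which held for 6.48% of all genes tested. The genes of 1 pathway are not independent of each other, and the list was chosen with earlier results known.

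Insig1 (chr5:28071363-28078662), which retains the sterol-sensing complex in the endoplasmic reticulum and is itself induced when sterol synthesis is on, was at 3.78, 2.98 and 3.85 log2 CPM under acute restriction and 5.52, 4.67 and 5.18 in ad libitum libraries. It fell by 1.68 (SE 0.29, 3.20-fold lower, edgeR adjusted p 0.042), from 9 to 169 UMIs per ad libitum library to 7 to 25. Msmo1, a methylsterol oxidase of the pathway, was at 6.31, 5.84 and 6.0 against 7.21, 6.69 and 7.10 and fell by 0.97 (SE 0.17, edgeR adjusted p 0.042). Both were without overlap. Mvd and Fdft1, which encode mevalonate diphosphate decarboxylase and squalene synthase, were at -1.97 and -1.06 (edgeR adjusted p 0.10 and 0.16). Srebf2, the transcription factor of the pathway, was at -0.21 with overlapping groups.

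In oligodendrocyte-like nuclei 23 of the 24 cholesterol genes were tested, 0 were called and the median was -0.36. The difference in response between the classes passed the threshold for Insig1 (1.67 ± 0.41 SE, edgeR adjusted p 0.031), which was at -0.01 in oligodendrocyte-like nuclei, and not for Msmo1 (0.44 ± 0.27 SE, adjusted p 0.79). In granule-like nuclei 23 genes of the list had a median of -0.03 and 0 were called.

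**Figure D5:**
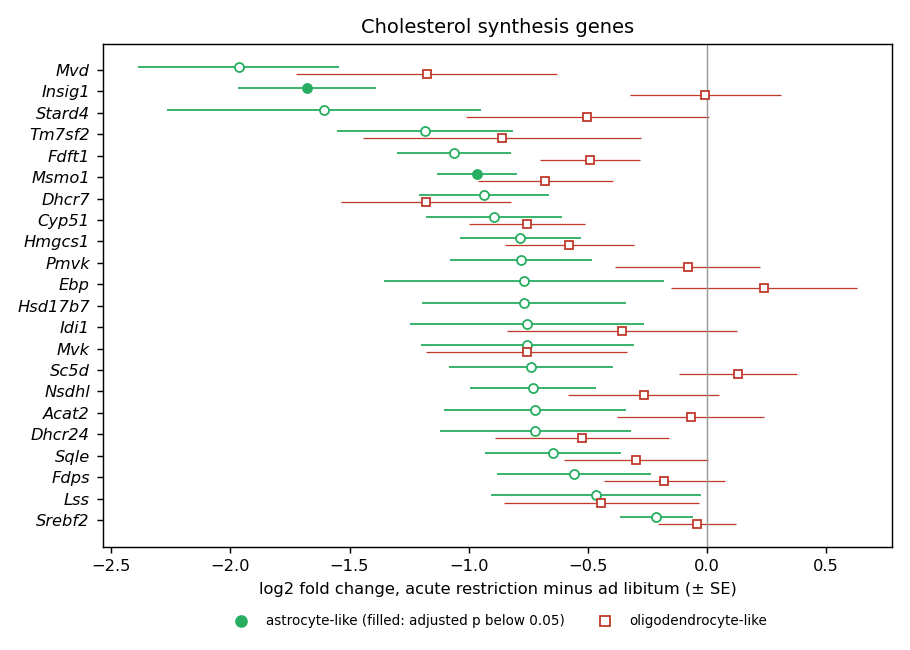
Log2 fold change under acute restriction (horizontal axis, ± SE) of 22 cholesterol synthesis genes in astrocyte-like nuclei (circles; filled at adjusted p below 0.05) and, where tested, in oligodendrocyte-like nuclei (squares). All 22 astrocyte values lie below 0, from Mvd at -1.97 to Srebf2 at -0.21, and 2 of them (Insig1 and Msmo1) are filled.

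The other astrocyte calls were Per2, Fabp7 and Shisal1. Per2 (chr1:91415982-91459324) rose, at 6.33, 6.52 and 6.43 log2 CPM against 5.32, 5.21 and 5.46 (1.15 ± 0.19 SE, edgeR adjusted p 0.042). It was the one call among 21 tested clock genes. Per2 was thus called in astrocyte-like and oligodendrocyte-like nuclei, and the difference between them was 0.27 ± 0.35 (SE, edgeR adjusted p 0.93). Fabp7, the brain fatty acid-binding protein, was at 3.71, 3.76 and 3.49 against 5.05, 5.21 and 4.83 and fell by 1.52 (SE 0.24, edgeR adjusted p 0.042). Shisal1 was at 3.85, 3.95 and 3.90 against 5.56, 5.60 and 4.83 and fell by 1.65 (SE 0.27, edgeR adjusted p 0.042). Both rest on few UMIs outside ad libitum library 1. Fabp7 had 17, 13 and 19 UMIs against 121, 34 and 7, and Shisal1 19, 15 and 26 against 175, 45 and 7.

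Of the glucocorticoid-induced genes 27 were tested in astrocyte-like nuclei and 0 were called, with a median log2 fold change of 0.29. Fkbp5 was at 5.12, 5.52 and 6.08 against 3.35, 3.27 and 3.69 (2.42 ± 0.46 SE, edgeR adjusted p 0.067), and Hif3a at 7.36, 8.14 and 8.08 against 7.07, 6.52 and 6.93 (1.04 ± 0.35 SE, adjusted p 0.60). Both had groups without overlap, as had 10 of the 27 in the higher direction, beside 6.49% of all genes tested. Without the libraries numbered 1, 4 members of the list were called higher. The difference of Fkbp5 between oligodendrocyte-like and astrocyte-like nuclei was -0.59 ± 0.37 in the joint model (SE, edgeR adjusted p 0.79). The separate fits gave 2.41 and 2.42 in these classes, so this value shows no larger response in either.

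The number of astrocyte calls moved with the libraries and covariates used. There were 0 with the 6 libraries fitted alone and with median UMIs per nucleus as a covariate, 0 without any one of the acute libraries or without ad libitum library 1, and 2 without ad libitum library 2 or 4. Without the libraries numbered 1 of all groups there were 46. Ad libitum library 4 held 82 astrocyte-like nuclei. Astrocyte markers overlapped between groups (16770.0 to 18988 against 16819 to 19117 CPM, 2 of 9 higher), and subicular neuron markers were lower under acute restriction (2324 to 2386 against 2421 to 2546 CPM, 5 of 8 higher). Of the 13 mitochondrially encoded genes 8 were tested, and all 8 had negative values (median -1.22) with overlapping groups. Their part in the called genes was not tested.

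In microglia-like nuclei the one call was Nlrp1b (chr11:71153102-71230733), a sensor that assembles an inflammasome. It was at 5.79, 6.52 and 6.46 log2 CPM under acute restriction and 7.47, 7.95 and 7.69 in ad libitum libraries, from 5, 19 and 26 against 11, 52 and 21 UMIs. It fell by 1.56 (SE 0.30, 2.94-fold lower, edgeR adjusted p 0.024). The groups did not overlap, which held, in the lower direction, for 5.98% of genes tested in the class and, in the higher direction, for 6.06%. Long-term libraries averaged 6.86 ± 0.41 (SD, n = 4) and young libraries 7.70 ± 0.16 (SD, n = 3). Nlrp1b is 1 of several close copies in the mouse genome, so the assignment of its UMIs is uncertain.

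The 7 tested members of the inflammasome list had a median log2 fold change of -0.22, with 0 called higher and 1 lower. Nlrp3, Pycard and Aim2, the sensors and the adaptor of other inflammasomes, were at -0.69, -0.34 and -0.22 and were not called. Microglial homeostasis genes (15 tested) and activation genes (9 tested) had 0 calls in either direction, with medians of -0.18 and 0.33. Microglia markers overlapped between groups (7634 to 8736 against 8356 to 9154 CPM, 3 of 9 higher), and median UMIs per nucleus did not (1295 to 1442 against 1449 to 2256). Fibroblast markers were lower under acute restriction (117 to 156 against 160 to 248 CPM, 2 of 9 higher, with Col1a1, Col1a2 and Col3a1 at 0), and their part was not tested. Nlrp1b was not called by DESeq2 or with median UMIs or the granule marker level as a covariate. It was also not called without the libraries numbered 1 of all groups. Leaving out any single library other than ad libitum library 1 also ended its call.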

How the data were processed

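The deposited matrices hold raw UMI counts of 32285 genes, made with Cell Ranger 4.0.0 and build mm10, per the submitters' processing notes. Intronic counting and strand are not given in the sources used here. Barcodes under 500 genes or over 5% mitochondrial UMIs were dropped and the rest kept (105427 of 105759 in the 13 libraries), the nuclei with the highest Scrublet scores (0.8% per 1000 nuclei; 7386 in all, 7.01%) were removed as doublets, and 46 Leiden clusters (scanpy 1.11.5) were named where at least 3 markers were raised. This gave 15 classes; 17350 nuclei stayed unnamed. Counts were summed per library and class (at least 20 nuclei) and tested in edgeR 4.0.16 (TMM, filterByExpr, robust quasi-likelihood fit over all 13 libraries, acute minus ad libitum, Benjamini-Hochberg within class). Log2 CPM used a prior count of 2. Differences between classes were class by diet terms with library as a block. Alternatives, run in edgeR or DESeq2 1.42.0, are given at the end. Scripts were tested on simulated data.

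In each class the text names the 12 largest called rises and falls without overlap and with at least 30 UMIs in the higher group, every call where there were 15 or fewer, and called members of 25 lists (588 genes). Other genes were named from those lists after their values were seen. Members and lists were chosen with earlier results of these data known. Gene spans come from GENCODE vM21 (mm10). Some genes counted in the lists are not reported here by name or shown in the plots.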

Additional observations from a re-analysis of the deposited data

Results flagged for a closer look

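The test of the difference in response itself (a class by diet term, edgeR adjusted p below 0.05) set apart the following genes among those the naming rule gives. Each value is the log2 fold change in oligodendrocyte-like nuclei minus that in the other class, as estimated in the joint model. It need not equal the difference between the fold changes fitted in each class alone. A positive value means a higher fold change in oligodendrocyte-like nuclei, not a higher level. It can also come from a fall in the other class, as for Insig1 (-0.01 against -1.68 in astrocyte-like nuclei).

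Against astrocyte-like nuclei the difference was positive for Fam169a 2.32, Gli2 3.50, Hif3a 2.01, Htra1 1.35, Insig1 1.67, Pdk4 2.77 and Phyhd1 1.84. It was negative for Adamts2 -2.82, Cdh19 -0.76, Dcc -1.69, Ephb1 -0.69, Pde4d -0.99, Robo1 -1.0 and Tmem132d -1.76. Adamts2 passed the filter on low counts in oligodendrocyte-like but not in astrocyte-like nuclei, so its value rests on no measured astrocyte change and supports nothing about that class.

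Against dentate granule neuron-like nuclei the difference was positive for Fkbp5 2.52, Gli2 3.40, Gpt2 1.06, Hif3a 3.21, Klf15 1.11, Mrgpra2b 2.73, Nfkbia 1.88, Per1 1.70, Per2 1.04, Phyhd1 3.52, Plin4 2.21 and Tef 0.71. It was negative for Adamts2 -2.02, Dcc -1.13, Lpcat2 -1.10, Pde4d -1.23, Piezo2 -2.95, Sema5a -1.24, Sema6d -0.68, Spata13 -1.44 and St8sia3os -2.47. Arrdc2, described above outside that rule, also differed (1.46, edgeR adjusted p 0.0083).

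Against microglia-like nuclei the difference was positive for Phyhd1 2.90 and Sgk1 3.35. It was negative for Lpcat2 -1.53.

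Against oligodendrocyte precursor-like nuclei the difference was positive for Abca1 0.75, Fam169a 2.74, Fkbp5 1.31, Mrgpra2b 4.41, Per2 1.38, Phyhd1 3.01 and Zfp934 0.94. It was negative for Adamts2 -1.99, Dcc -1.46, Gria4 -0.81, Grik2 -0.57, Lpcat2 -1.60, Pde4d -1.13, Piezo2 -2.77, Pllp -0.97, Robo1 -0.64, Sema5a -1.38, Sema6a -0.61, Spata13 -1.17, Tmem132d -1.38 and Zmynd8 -0.72. Mrgpra2b and Phyhd1 did not pass the filter in precursor-like nuclei, so their values rest on no measured precursor change and support nothing about that class.

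Among the long-term restriction libraries, library 1 lay far from the rest in oligodendrocyte-like nuclei for St8sia3os (2.18 log2 CPM) and Spata13 (4.58 log2 CPM). Chance gives such a value in about 1 in 20 groups. Long-term library 1 held 183 oligodendrocyte-like nuclei. Mrgpra2b and Piezo2 were also at 2.18 in it, so the St8sia3os value rests on few UMIs. The long-term group is not part of the comparison described here.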

How the results depend on the processing

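All genes called in the main fit kept their direction in every alternative in which they were fitted. The alternatives reuse most of the counts that chose these genes, so this is a description only. The counts of calls did move, and are given in the order oligodendrocyte-like, precursor-like, astrocyte-like and granule-like (main 227, 14, 5 and 0). DESeq2 called 122, 17, 22 and 43, no filter on low counts 409, 37, 29 and 7, and the 6 libraries alone 437, 37, 0 and 0. A term for number 1 gave 347, 65, 32 and 27. Leaving out the libraries numbered 1 of all groups gave 259, 77, 46 and 2. Median UMIs as a covariate gave 36, 8, 0 and 0, the length trend removed 205, 28, 8 and 8, and the granule marker level 186, 17 and 18 in the first 3 of these. Doublets kept gave 182, 7, 6 and 0, and adjustment over all classes 90, 14, 11 and 10. Microglia-like calls (main 1) were 2 with no filter, 3 with the 6 libraries, 0 with either covariate and 2 without the libraries numbered 1. In classes with 0 main calls, CA1-like nuclei had 1 without the libraries numbered 1, and CA3-like nuclei 6 with no filter and 1 with a term for number 1. Inhibitory neuron-like nuclei had 1 with DESeq2, no filter or adjustment over all classes and 14 without the libraries numbered 1, and endothelial-like nuclei 2 with no filter and 6 with doublets kept. Except where an alternative changes the genes or libraries fitted, the cause was not tested.

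Leaving out 1 library at a time gave 83 to 208 oligodendrocyte-like, 3 to 10 precursor-like, 0 to 2 astrocyte-like, 0 to 1 microglia-like, 0 to 1 granule-like, 0 to 3 CA3-like and 0 to 9 endothelial-like calls (9 without ad libitum library 2). The genes that differed in response from oligodendrocyte-like nuclei numbered 62 to 116 for precursor-like (main 127), 25 to 94 for astrocyte-like (main 75), 2 to 8 for microglia-like (main 5) and 82 to 160 for granule-like nuclei (main 152).

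The groups share the numbers 1 and 2 only, and no label ties a number to an animal or day, so libraries were not treated as paired. With the number as a replicate block there were 375, 51, 27 and 18 calls, with 1 more for CA3-like nuclei and 2 for the endothelial-like class. Same-numbered libraries deviated together across genes with correlations of 0.085 and 0.045 in oligodendrocyte-like, 0.215 and 0.087 in precursor-like, 0.256 and 0.098 in astrocyte-like and 0.362 and 0.109 in granule-like nuclei. Differently numbered libraries in granule-like nuclei ranged from -0.437 (acute 1 and ad libitum 4) to 0.381 (acute 3 and ad libitum 4). Acute 2 and acute 3 were at -0.299 and -0.242 with ad libitum 1. Each deviation was taken from its own group's mean, so these correlations depend on each other. They cannot show whether the numbers mark pairs.

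Each group had 3 libraries, and the fewest nuclei were in ad libitum library 1 (110) and acute library 1 (163) for the oligodendrocyte-like class and in ad libitum library 4 (82) for the astrocyte-like class. How far these small sums limit the calls was not tested.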
